A study of Mus musculus with 6 samples.

Results

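The genes described here encode the transforming growth factor beta (TGF-beta), bone morphogenetic protein (BMP) and activin signalling pathway. A list of 47 genes was matched by symbol to the array's platform table, and all 47 had a probe set that names a single gene, out of 19856 genes measured. They comprised 13 ligands, 12 receptors and co-receptors, 11 SMAD proteins and their intracellular regulators, 6 secreted inhibitors and processing enzymes, and 5 target genes. Transcript levels came from 6 arrays of cultured mouse embryonic fibroblasts, connective tissue cells taken from embryos. Of these, 3 held the tetraploid line 174, which the labels describe as having abnormal DNA contents and the series title calls transformed, and 3 held the diploid line FW, the normal control. Both were grown in serum-containing medium to near confluence, and no treatment is given. With 1 line of each kind, effects of ploidy, of transformation and of the line itself cannot be told apart. Nothing in the labels says that samples came from separate cultures, so p-values cover only the spread between these samples, which may be technical.

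In this pathway, secreted dimers of the TGF-beta family bind pairs of type I and type II receptor kinases on the cell surface. TGF-beta and activin receptors phosphorylate SMAD2 and SMAD3, BMP receptors phosphorylate SMAD1, SMAD5 and SMAD9, and both kinds of SMAD join SMAD4 and act on target genes in the nucleus. In fibroblasts TGF-beta is best known for raising extracellular matrix and contractile gene expression, and BMP signalling for raising the ID genes. Several targets are brakes that dampen the same signal, among them SMAD7, SKIL, PMEPA1, follistatin and the decoy receptor BAMBI.

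Values are log2 array signals with 1 probe set per gene, and levels of different genes cannot be set against each other. The background level of an array, the 95th percentile of its 1027 olfactory receptor genes, ranged from 7.18 to 7.41 in the tetraploid line and from 7.01 to 7.26 in the diploid line. All 10 fibroblast markers, among them Col1a1, Vim and Pdgfrb, lay above background on all 6 arrays, with list means of 11.94, 11.95 and 12.36 on tetraploid arrays 1 to 3 and 12.26, 12.48 and 12.47 on diploid arrays 1 to 3. Of these markers 2 fell, Col1a1 and Fn1, and 0 rose; each call held in 1 of the 6 fits without 1 array (adjusted p 0.0660 to 0.138 and 0.0763 to 0.152 in the others). Macrophage and leukocyte markers averaged 4.28, 4.504 and 4.36 in the tetraploid line, with 1, 1 and 0 of 15 above background, and 5.07, 6.41 and 7.17 in the diploid line, with 1, 4 and 8. Of the 15, 7 stayed below background on all 6 arrays, Ptprc and Adgre1 among them. Lyz2 read 6.48, 9.32 and 9.98 on diploid arrays 1 to 3, against 4.58, 3.63 and 0.44 on tetraploid arrays 1 to 3. Cd68 exceeded background on 3 diploid arrays and 1 tetraploid array. Of the 15 markers 13 had lower means in the tetraploid line, while Csf1r (difference 0.18) and Cd14 (0.36) were higher there and not called. Csf1r read 6.65, 8.55 and 5.61 on tetraploid arrays 1 to 3, against 6.16, 6.53 and 7.57 on diploid arrays 1 to 3. It was above background on 1 array of each line, and Cd14 on none.

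Of the ligands 9 of 13, of the intracellular brakes 2 of 5 and of the ID target genes 3 of 4 had lower transcript levels in the tetraploid line, while the SMADs that carry the signal mostly did not pass the test and 1 of them rose. The 9 ligands include Bmp5, Bmp6 and Gdf6, whose calls ended with values raised to background. Limma, with p-values adjusted over all genes by Benjamini-Hochberg, called 20 of the 47 genes at an adjusted p below 0.05, against 14.0% of all genes. The tetraploid line was lower in 18 of them (38.3% of the members, against 7.8% of all genes) and higher in 2, Tgfbr3 and Smad1 (4.26%, against 6.15%). The members differ from all genes in detection: 5 of 47 were below background on all 6 arrays, against 7008 of 19856. On all 6 arrays 28 members and 8628 genes were above it. The members were also chosen with earlier results of these data known. The median difference was -0.91 over the 47 genes and 0.07 over all genes. All 3 tetraploid values lay below all 3 diploid values in 29 of the 47 genes (61.7%, against 18.2% of all genes) and above them in 5, against 19.1%. Members varied more in the tetraploid line, with a median SD of 0.476 against 0.177 in the diploid line, as did all genes, with 0.345 against 0.235. In bulk RNA, fewer cells of a type and less RNA per cell cannot be told apart.

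**Figure D1:**
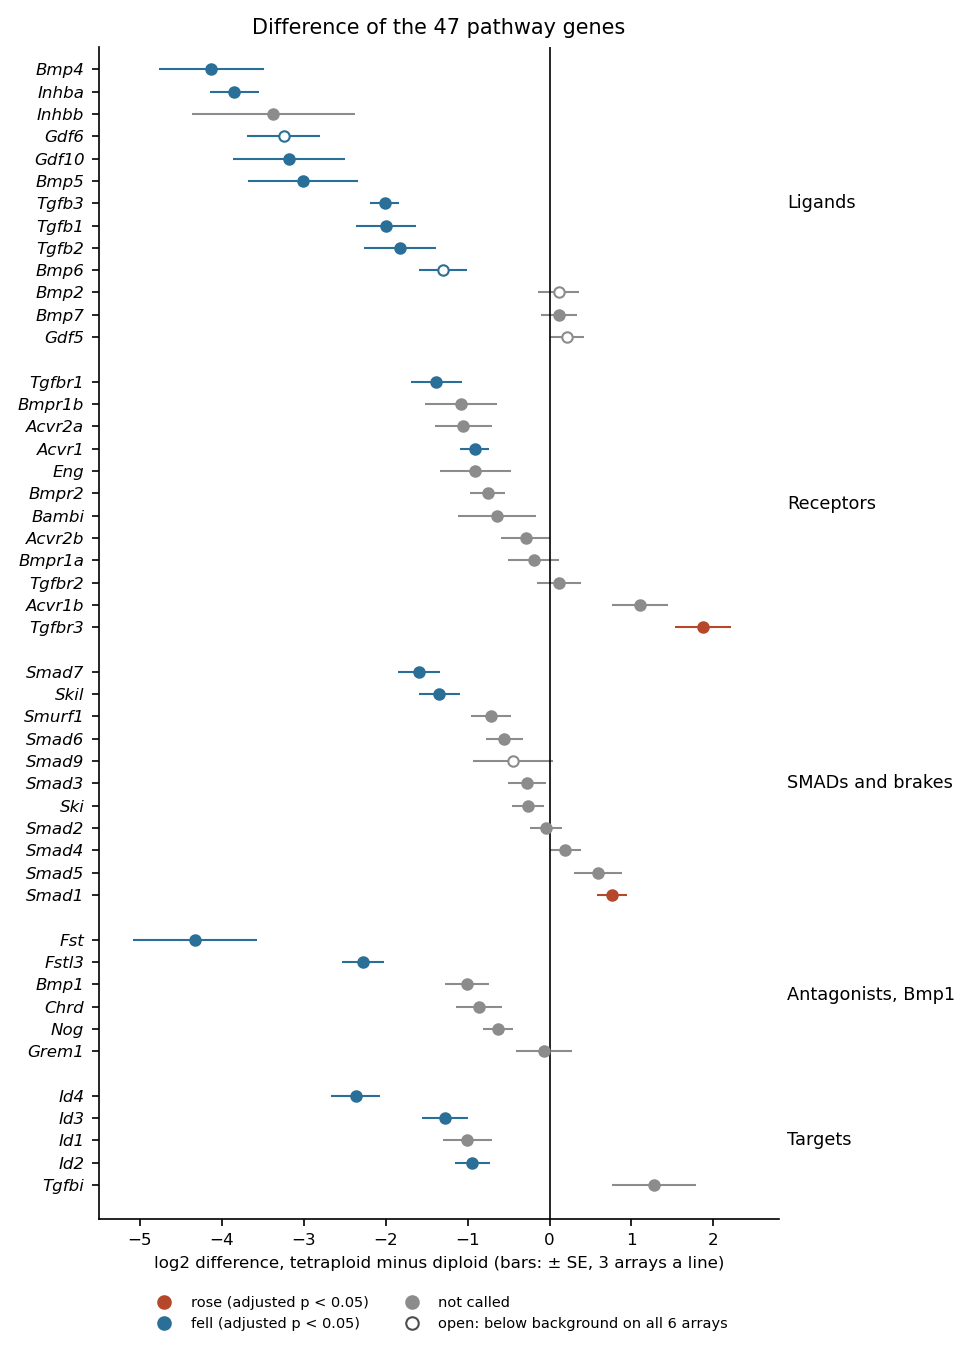
Difference of each of the 47 pathway genes, as the log2 value in the tetraploid line minus that in the diploid line (horizontal axis), grouped by role, with the SE from the limma fit over 3 arrays a line. Points left of 0 are lower in the tetraploid line: 18 genes fell and 2 rose, and open points mark the 5 genes below background on all 6 arrays.

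The calls depended on the number of arrays. In the 6 fits that each left out 1 array, between 7 and 19 members fell and between 0 and 2 rose. The falls numbered 9, 7 and 8 without diploid arrays 1, 2 and 3, and Tgfbr3 and Smad1 both lost their calls without diploid array 2. The members called in all 6 fits were Tgfb3, Bmp4, Gdf6, Inhba, Smad7, Fstl3 and Id4 (14.9% of the 47, against 3.83% of all genes). Of these, Gdf6 was below background on all 6 arrays, and its call ended with values raised to background (adjusted p = 0.463).

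The 3 TGF-beta ligand genes all fell, against 7.8% of all genes. Tgfb1, the isoform most widely made by mesenchymal and blood cells, read 8.33, 9.23 and 9.78 on tetraploid arrays 1 to 3, against 11.19, 11.09 and 11.06 on diploid arrays 1 to 3. The diploid values lay within a narrow band and every tetraploid value lay below it, 4.002-fold lower on average (difference -2.001, SE 0.37, adjusted p = 0.0163). Tgfb2, which needs a co-receptor to bind its type II receptor well, read 7.30, 8.80 and 8.95 in the tetraploid line, against 10.19, 10.28 and 10.04 in the diploid line. Tetraploid array 1 stood close to its background level of 7.18, and the average was 3.53-fold lower (adjusted p = 0.0376). Tgfb3 read 10.24, 10.34 and 10.33 in the tetraploid line, against 12.42, 12.31 and 12.23 in the diploid line. Its samples agreed closely within each line, and it was 4.03-fold lower (difference -2.01, SE 0.18, adjusted p = 0.00150). Leaving out any of the diploid arrays ended the call of Tgfb1, at an adjusted p of 0.0552 to 0.0624. For Tgfb2 the same held, and also for tetraploid array 2 (0.0629 to 0.119).

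Activins are dimers of inhibin beta chains. Inhba, which encodes the beta A chain of activin A, read 8.86, 7.96 and 8.75 on the tetraploid arrays, against 12.65, 12.14 and 12.31 on the diploid arrays. All 6 values were above background and the lines were far apart, with the tetraploid line 14.4-fold lower (difference -3.85, SE 0.30, adjusted p = 9.52e-04). The beta B chain gene Inhbb was at 7.65, 3.22 and 6.16 in the tetraploid line, against 8.97, 9.03 and 9.13 in the diploid line. Here the groups did not overlap, but the tetraploid arrays were spread over more than 4 log2 units and only 1 of them was above background, and the difference of -3.37 did not pass the test (adjusted p = 0.0690). Inhbb was called with values raised to background (difference -1.60, adjusted p = 6.99e-05), with the filter on dim genes and with limma-trend. Follistatin and follistatin-like 3 are secreted proteins that bind activins and keep them from their receptors. Fst read 5.85, 5.43 and 8.52 in the tetraploid line, against 10.79, 11.13 and 10.87 in the diploid line. Tetraploid array 3 was the only one of its line above background, and the difference was -4.33 (SE 0.75, adjusted p = 0.0142). With values raised to background it was -3.23, or 9.37-fold lower. Fstl3 read 7.52, 8.07 and 7.40 in the tetraploid line, against 10.11, 10.05 and 9.67 in the diploid line. Every tetraploid value was above background and the line was 4.85-fold lower (adjusted p = 0.00370). The activin chain gene and its inhibitor genes Fst and Fstl3 were lower in the same line. The call of Fst ended without diploid array 2 (adjusted p = 0.0562).

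The sequences upstream of Inhba and Fstl3 are shown because both genes were called in all 6 fits without 1 array. Each is the 250 bases before the annotated start in RefSeq on GRCm38.p6, 5′ to 3′ on the gene's strand: Inhba at chr13:16011601-16011850, plus strand, and Fstl3 at chr10:79777024-79777273, plus strand. Capitals mark 3 motifs, searched on both strands. They are CAGAC, the core that SMAD3 and SMAD4 bind, which reads GTCTG on the other strand; GGCGCC, a GC-rich element that BMP-activated SMADs can bind; and the core promoter motif TATAAA, whose other strand reads TTTATA. The motifs do not overlap each other in these sequences.
Inhba: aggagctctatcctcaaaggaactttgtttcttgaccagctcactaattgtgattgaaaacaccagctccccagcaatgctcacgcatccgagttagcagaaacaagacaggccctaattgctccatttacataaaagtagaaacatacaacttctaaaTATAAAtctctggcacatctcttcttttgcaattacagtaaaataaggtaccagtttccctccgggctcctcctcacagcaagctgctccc
Fstl3: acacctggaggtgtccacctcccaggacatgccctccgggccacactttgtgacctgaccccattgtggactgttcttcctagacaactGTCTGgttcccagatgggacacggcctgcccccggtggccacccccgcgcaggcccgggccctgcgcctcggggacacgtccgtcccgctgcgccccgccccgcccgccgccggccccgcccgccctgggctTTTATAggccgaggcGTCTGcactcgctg
The Inhba window held TATAAA from 91 to 86 bases before the start and neither of the other motifs. In the Fstl3 window GTCTG stood from 161 to 157 and from 14 to 10 bases before the start, and TTTATA from 29 to 24. Across 32851 such windows of the mouse table, CAGAC occurred in 42.2%, TATAAA in 12.4% and GGCGCC in 9.59%. Of the 47 members 32 had a window in that table, 37 windows in all, of which 45.9% held CAGAC, 10.8% TATAAA and 29.7% GGCGCC. A match of letters is a description and shows no binding.

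Of the 8 BMP and GDF ligand genes 5 fell (62.5%) and 0 rose, against 7.8% and 6.15% of all genes. Of these 8 genes 0 were above background on all 6 arrays. The falls include Bmp5, Bmp6 and Gdf6, whose calls ended with values raised to background. Bmp4, a BMP made by many mesenchymal tissues of the embryo, read 4.67, 7.03 and 4.53 on the tetraploid arrays, against 9.35, 9.60 and 9.66 on the diploid arrays. It was above background on no tetraploid array and on all diploid arrays, and at least 4.75-fold lower (adjusted p = 0.0101). Such bounds set the mean of the diploid line against the tetraploid arrays raised to their background level. Gdf10, also known as BMP3B, was at 7.53, 7.70 and 5.30 in the tetraploid line, against 9.25, 10.64 and 10.16 in the diploid line. The values were above background on 2 tetraploid arrays and all diploid arrays, and the difference was -3.18 (adjusted p = 0.0273). Raised to background, it was -2.51, or 5.71-fold lower. Its call ended without diploid array 2 or 3 (adjusted p 0.0855 to 0.0937).

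Other ligands of this branch lay at the edge of detection. Bmp5 read 4.90, 2.48 and 2.91 in the tetraploid line, against 7.26, 6.06 and 6.005 in the diploid line, where only array 1 was above background (adjusted p = 0.0294). Gdf6, a ligand of joint and skeletal development, read 4.49, 3.78 and 2.66 in the tetraploid line, against 6.84, 7.11 and 6.72 in the diploid line (adjusted p = 0.00682). Bmp6 read 3.84, 4.55 and 4.58 in the tetraploid line, against 5.84, 5.24 and 5.78 in the diploid line (adjusted p = 0.0301). Gdf6 and Bmp6 were below background on all 6 arrays, and no fold is given for these 3 genes. With values raised to background, their differences became 0.11 for Bmp5 (adjusted p = 0.514) and 0.12 for the other two (adjusted p = 0.463), so these 3 of the 18 falls were not measurable above background. Bmp5 kept its call only when tetraploid array 1 was the one left out (0.0688 to 0.0915 in the others), and Bmp6 only when it was tetraploid array 3 (0.0501 to 0.105). Bmp2 (difference 0.11, adjusted p = 0.815) and Gdf5 (0.21, adjusted p = 0.547) were also below background on all arrays. Bmp7 averaged 7.26 ± 0.22 in the tetraploid line and 7.14 ± 0.20 in the diploid line (SD, n = 3 each), both around background (limma adjusted p = 0.776).

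**Figure D2:**
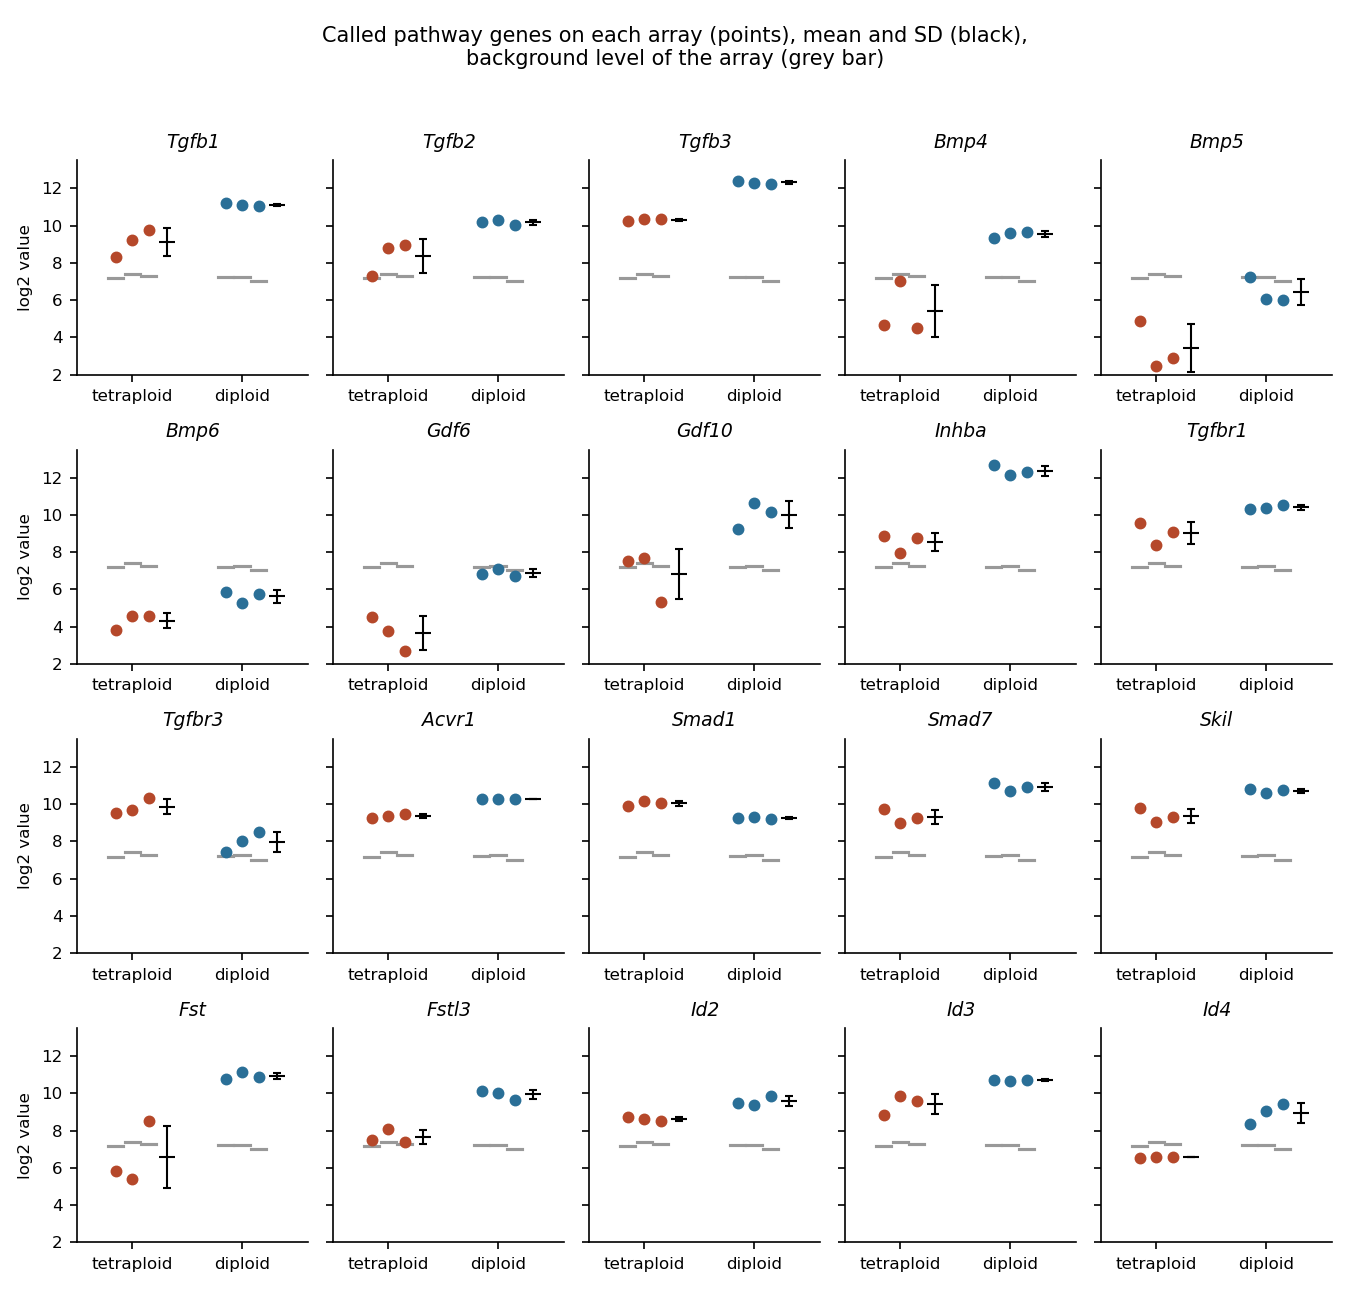
Log2 values of the 20 called pathway genes on each array, tetraploid left and diploid right in each panel, with the mean and SD over 3 arrays in black and the background level of each array as a grey bar. In each panel the points of the lines do not overlap; Bmp6 and Gdf6 lie below background on all arrays, and Bmp4, Bmp5 and Id4 on the tetraploid arrays.

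Of the 9 receptor kinases 2 fell (22.2%) and 0 rose, against 7.8% and 6.15% of all genes, and 0 were called in all 6 fits without 1 array. Tgfbr1, the type I receptor of TGF-beta, read 9.57, 8.40 and 9.07 on the tetraploid arrays, against 10.31, 10.34 and 10.53 on the diploid arrays. Each tetraploid value lay below the diploid ones, and it was 2.61-fold lower (difference -1.38, SE 0.31, adjusted p = 0.0317). Its partner Tgfbr2, the type II receptor that binds the ligand first, read 10.15, 10.76 and 11.00 in the tetraploid line, against 10.34, 10.67 and 10.56 in the diploid line. Those groups overlapped, with a difference of 0.11 and a 95% interval of -0.52 to 0.75 (adjusted p = 0.826). Acvr1, the type I receptor also called ALK2 that carries BMP signals, read 9.25, 9.35 and 9.48 in the tetraploid line, against 10.29, 10.25 and 10.27 in the diploid line. Samples were alike within each line, and the tetraploid line was 1.89-fold lower (difference -0.92, SE 0.18, adjusted p = 0.0209).

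The other receptor kinases did not pass the test. The BMP type I receptor gene Bmpr1a differed by -0.20, with a 95% interval of -0.92 to 0.53, and Bmpr1b by -1.08 (-2.12 to -0.04). Bmpr2, the BMP type II receptor, averaged 10.28 ± 0.25 in the tetraploid line and 11.04 ± 0.10 in the diploid line (SD, n = 3 each), just short of the threshold (limma adjusted p = 0.0569). Of the activin receptors, Acvr2a differed by -1.05 (SE 0.35, adjusted p = 0.0937) and Acvr2b by -0.29 (SE 0.30). Bmpr2 and Acvr2a were called with the filter on dim genes, with values raised to background and with limma-trend. Bmpr2 was also called with quantile normalization, and Bmpr1b with values raised to background only. Acvr1b, the activin type I receptor ALK4, went the other way, at 8.19, 7.15 and 7.77 in the tetraploid line against 6.16, 6.60 and 7.01 in the diploid line. These groups did not overlap, 2 tetraploid and 0 diploid arrays were above background, and the adjusted p was 0.0773. Acvr1b was called higher with values raised to background (difference 0.62, adjusted p = 0.0476) and with limma-trend.

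Tgfbr3, or betaglycan, a co-receptor that presents TGF-beta2 to the signalling receptors and also binds inhibin and BMPs, was the largest rise among the 47 genes. It read 9.55, 9.70 and 10.30 in the tetraploid line, against 7.41, 8.03 and 8.49 in the diploid line. All 6 values were above background and the tetraploid line was 3.67-fold higher (difference 1.88, SE 0.34, adjusted p = 0.0162), but the call ended without diploid array 2 (adjusted p = 0.0618). Tgfb2, whose protein depends on this co-receptor, fell in the same comparison, as given above. Eng, the co-receptor endoglin of endothelial and mesenchymal cells, read 8.36, 7.67 and 9.37 in the tetraploid line, against 9.53, 9.02 and 9.57 in the diploid line. Its groups overlapped (adjusted p = 0.216). Of 8 endothelial markers 5 were below background on all 6 arrays, Pecam1 and Cdh5 among them, while Cldn5 was above it on all 6 and Kdr and Emcn fell. Their part in the Eng values was not tested. Bambi, a receptor lacking the kinase that acts as a decoy, overlapped between the lines as well, at 7.35 ± 0.97 in the tetraploid line and 7.998 ± 0.27 in the diploid line (SD, n = 3 each; limma adjusted p = 0.422). With 1 array left out, Tgfbr1 stayed called only for tetraploid array 1 (adjusted p 0.0544 to 0.103 in the other fits), and Acvr1 only for tetraploid arrays 1 and 3 (0.0512 to 0.0913).

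Among the 5 receptor-regulated SMADs and Smad4, 1 rose and 0 fell, against 6.15% and 7.8% of all genes. Their median difference was 0.07. Smad2 read 9.29, 9.05 and 9.40 in the tetraploid line, against 9.23, 9.28 and 9.37 in the diploid line, a difference of -0.05 (95% interval -0.50 to 0.41). Smad3 differed by -0.28 (-0.82 to 0.26), and Smad4, the partner of all signalling SMADs, by 0.19 (-0.25 to 0.64). Smad1, which BMP receptors activate, read 9.91, 10.15 and 10.05 in the tetraploid line, against 9.27, 9.33 and 9.23 in the diploid line. Both groups were tight and it was 1.70-fold higher (difference 0.76, SE 0.18, adjusted p = 0.0376). Smad5, its close relative, read 10.36, 9.33 and 9.62 in the tetraploid line, against 9.20, 9.13 and 9.21 in the diploid line, higher on every tetraploid array but not called (adjusted p = 0.230). Smad9 was below background on all 6 arrays.

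All 5 intracellular brakes had lower values on each tetraploid array than on any diploid array, and 2 of them fell, against 18.2% and 7.8% of all genes. Smad7, the inhibitory SMAD that TGF-beta itself induces and that blocks the type I receptor, read 9.74, 8.999 and 9.25 in the tetraploid line, against 11.12, 10.72 and 10.94 in the diploid line. The tetraploid line was 3.03-fold lower (difference -1.60, SE 0.26, adjusted p = 0.0111). Skil, or SnoN, a co-repressor that TGF-beta also induces, read 9.77, 9.01 and 9.33 in the tetraploid line, against 10.81, 10.60 and 10.74 in the diploid line. It was 2.54-fold lower (adjusted p = 0.0164). Smad6, the inhibitory SMAD of the BMP branch (difference -0.55, adjusted p = 0.159), the ubiquitin ligase Smurf1 (-0.71, adjusted p = 0.106) and the co-repressor Ski (-0.26, adjusted p = 0.436) did not pass the test. Smad6 and Smurf1 were called with values raised to background, and Smurf1 also with the filter on dim genes and with limma-trend. Skil lost its call when any of the diploid arrays was left out (0.0595 to 0.0651), and Smad1 when any array other than tetraploid array 1 was (0.0690 to 0.129).

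The secreted BMP inhibitors Grem1, Nog and Chrd did not pass the test. Grem1, or gremlin, which binds BMP2 and BMP4, read 11.12, 10.87 and 11.95 in the tetraploid line, against 11.71, 10.99 and 11.42 in the diploid line. The lines overlapped, with a difference of -0.06 and a 95% interval of -0.87 to 0.74 (adjusted p = 0.929). Noggin and chordin also sequester BMPs, and Nog (difference -0.63, adjusted p = 0.0651) and Chrd (-0.86, adjusted p = 0.0877) exceeded background on diploid array 3 only. Bmp1, a protease that cuts chordin and trims procollagen and not a BMP ligand, read 10.33, 11.20 and 10.95 in the tetraploid line, against 11.94, 11.90 and 11.67 in the diploid line. These groups did not overlap, and the difference of -1.01 (SE 0.27) was just short of the threshold (adjusted p = 0.0517). It passed the threshold with arrays centred, with the filter on dim genes, with values raised and with limma-trend.

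The ID genes encode inhibitors of basic helix-loop-helix transcription factors and are direct targets of BMP-activated SMADs. All 4 were lower on each tetraploid array than on any diploid array, and 3 fell, against 18.2% and 7.8% of all genes. Id4 read 6.56, 6.60 and 6.58 in the tetraploid line, against 8.35, 9.06 and 9.43 in the diploid line. The tetraploid values were all below background, and it was at least 3.15-fold lower (adjusted p = 0.00510). Id3 read 8.86, 9.85 and 9.58 in the tetraploid line, against 10.72, 10.66 and 10.74 in the diploid line, 2.43-fold lower (difference -1.28, SE 0.28, adjusted p = 0.0299). Id2 was at 8.74, 8.65 and 8.53 in the tetraploid line, against 9.51, 9.37 and 9.86 in the diploid line, 1.92-fold lower (difference -0.94, SE 0.21, adjusted p = 0.0308). Id1, the gene most used as a readout of BMP signalling, read 9.15, 9.91 and 8.90 in the tetraploid line, against 10.39, 10.12 and 10.46 in the diploid line. Its difference of -1.01 (SE 0.30) did not pass the test (adjusted p = 0.0690). Id1 was called with the filter on dim genes, with values raised to background and with limma-trend. Tgfbi, an extracellular matrix protein gene named for its induction by TGF-beta, was not lower: it read 10.46, 9.37 and 11.30 in the tetraploid line, against 8.55, 9.14 and 9.61 in the diploid line. The groups overlapped and the difference of 1.28 (SE 0.51) was not called (adjusted p = 0.151). Id2 lost its call when any array other than tetraploid array 1 was left out (0.0688 to 0.101), and Id3 when tetraploid array 3 or any of the diploid arrays was (0.0562 to 0.0976).

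The upstream windows of the 3 ID genes that fell are shown because the genes moved together, with the same build and the same capitals as for Inhba: Id2 at chr12:25096093-25096342, minus strand, Id3 at chr4:136143572-136143821, plus strand, and Id4 at chr13:48260866-48261115, plus strand.
Id2: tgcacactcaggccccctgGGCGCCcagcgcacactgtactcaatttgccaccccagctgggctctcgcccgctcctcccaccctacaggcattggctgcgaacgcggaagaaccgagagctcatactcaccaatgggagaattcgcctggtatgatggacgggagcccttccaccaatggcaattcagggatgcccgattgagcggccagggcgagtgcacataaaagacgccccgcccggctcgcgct
Id3: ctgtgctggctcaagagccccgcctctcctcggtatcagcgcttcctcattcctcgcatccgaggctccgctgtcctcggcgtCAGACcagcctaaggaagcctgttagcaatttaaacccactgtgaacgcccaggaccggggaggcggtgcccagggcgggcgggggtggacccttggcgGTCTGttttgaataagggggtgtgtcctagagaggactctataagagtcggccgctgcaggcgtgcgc
Id4: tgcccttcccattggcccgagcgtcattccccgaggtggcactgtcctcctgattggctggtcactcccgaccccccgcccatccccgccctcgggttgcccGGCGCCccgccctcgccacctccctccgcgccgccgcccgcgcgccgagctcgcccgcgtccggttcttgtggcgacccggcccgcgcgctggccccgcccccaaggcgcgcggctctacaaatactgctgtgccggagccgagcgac
GGCGCC stood in the Id2 window from 231 to 226 bases before the start and in the Id4 window from 148 to 143. The Id3 window had none and held CAGAC from 167 to 163 and GTCTG from 68 to 64 bases before the start. Elements farther upstream were not analysed here.

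Another 133 pathway genes outside the 47 were listed by role, of which 127 were measured: 36 were called lower (28.3%) and 4 higher (3.15%), leaving 87 uncalled, against 7.8% and 6.15% of all genes. Raising values to background ended 8 of the 40 calls. Among 18 genes of ligand latency and activation 7 fell and 1 rose (median -1.10). Thbs1, or thrombospondin 1, which activates latent TGF-beta, read 10.94, 12.11 and 11.68 in the tetraploid line, against 14.33, 14.35 and 14.27 in the diploid line, and was 6.68-fold lower (adjusted p = 0.00378). Tll1, a protease of the BMP1 family, was at 7.53, 5.77 and 8.25 in the tetraploid line, against 11.80, 11.33 and 11.35 in the diploid line. With 2 tetraploid arrays above background, the difference was -4.31 (adjusted p = 0.00686), and it was 13.6-fold lower with values raised to background. Pcsk5, a proprotein convertase, was above background on the diploid arrays only, and was at least 1.15-fold lower (adjusted p = 7.22e-04). Ltbp4, a latent TGF-beta binding protein, went the other way, at 9.85 ± 0.74 in the tetraploid line and 8.33 ± 0.19 in the diploid line (SD, n = 3 each; limma adjusted p = 0.0422).

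Of 26 genes known to be induced by TGF-beta in fibroblasts and other cells, 16 fell and 0 rose (median -1.34), against 7.8% and 6.15% of all genes. The list differs from all genes in detection. On all 6 arrays 21 of the 26 were above background and 0 below it, against 8628 and 7008 of 19856 genes. In all 6 fits without 1 array 5 of the 16 stayed called (19.2% of the 26, against 3.83% of all genes). With values raised to background the calls of Il11 and Angptl4 ended (adjusted p 0.863 and 0.577). Ccn2, or connective tissue growth factor, read 9.12, 9.54 and 10.15 in the tetraploid line, against 13.42, 13.01 and 12.94 in the diploid line, and was 11.5-fold lower (adjusted p = 0.00136). Nox4, an oxidase that produces hydrogen peroxide, was above background on 1 tetraploid array and 3 diploid arrays and differed by -3.72 (adjusted p = 0.00967), or was 5.10-fold lower with values raised to background. The elastin gene Eln was at least 2.77-fold lower (adjusted p = 0.00514). Many genes of this list also answer to other inputs, and 3 of them, Acta2, Tagln and Cnn1, stand in the smooth muscle marker list and 4, Col1a1, Col1a2, Col3a1 and Fn1, in the fibroblast list. The 6 smooth muscle markers averaged 7.64, 7.56 and 8.88 on the tetraploid arrays, against 10.81, 11.07 and 10.78 on the diploid arrays. Of those markers 3 fell, namely Tagln, Myh11 and Des (Tagln not without tetraploid array 1 or any of the diploid arrays, adjusted p 0.0710 to 0.0933), and their part in the pathway result was not tested.

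Of 14 BMP target genes 6 fell (42.9%) and 1 rose (7.14%), against 7.8% and 6.15% of all genes, with a median of -0.61. In all 6 fits without 1 array 3 stayed called (21.4% of the 14, against 3.83% of all genes). Msx2, a homeobox gene induced by BMPs in the embryo, read 5.24, 3.17 and 4.68 in the tetraploid line, against 8.77, 7.30 and 7.98 in the diploid line, at least 1.65-fold lower (adjusted p = 0.0114). With values raised to background that call ended (adjusted p = 0.135), as did those of the BMP targets Msx1 and Dlx5 (0.463 each). The call of Pcsk5 ended as well (0.463). Gata2, a transcription factor of blood progenitors, rose to 8.67 ± 0.77 in the tetraploid line, against 7.15 ± 0.25 in the diploid line (SD, n = 3 each; limma adjusted p = 0.0458). Of 26 intracellular regulators 4 fell (15.4%) and 1 rose (3.85%), with a median of -0.05. The membrane protein Pmepa1, a TGF-beta-induced brake on SMAD2 and SMAD3, read 9.57, 9.20 and 10.28 in the tetraploid line, against 12.43, 12.28 and 12.29 in the diploid line, and was 6.28-fold lower (adjusted p = 0.00370). Tab1, which activates the kinase TAK1, rose 2.31-fold (adjusted p = 0.0113), with 1 diploid array above background, and the BMP co-receptor gene Rgma 2.59-fold (adjusted p = 0.0159), the only call among 9 other receptors. With values raised to background the difference of Tab1 was 0.96. With the floor at the 99th percentile it was 0.054 and the call ended (adjusted p = 0.808). Among 16 other antagonists 3 fell (18.8%) and 0 rose (median -0.24). Among 18 other ligands 0 were called by limma, with 2 at an unadjusted p below 0.05 and 12 below background on all arrays. All 4 rises, Gata2, Ltbp4, Rgma and Tab1, lost their calls without diploid array 1 or 2, and the first 3 also without diploid array 3; Gata2 lost it without tetraploid array 1 or 2 and Ltbp4 without tetraploid array 2 or 3 as well. The adjusted p then ran from 0.0969 to 0.147 for Gata2, 0.102 to 0.128 for Ltbp4, 0.0534 to 0.0650 for Rgma and 0.0520 to 0.0555 for Tab1.

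**Figure D3:**
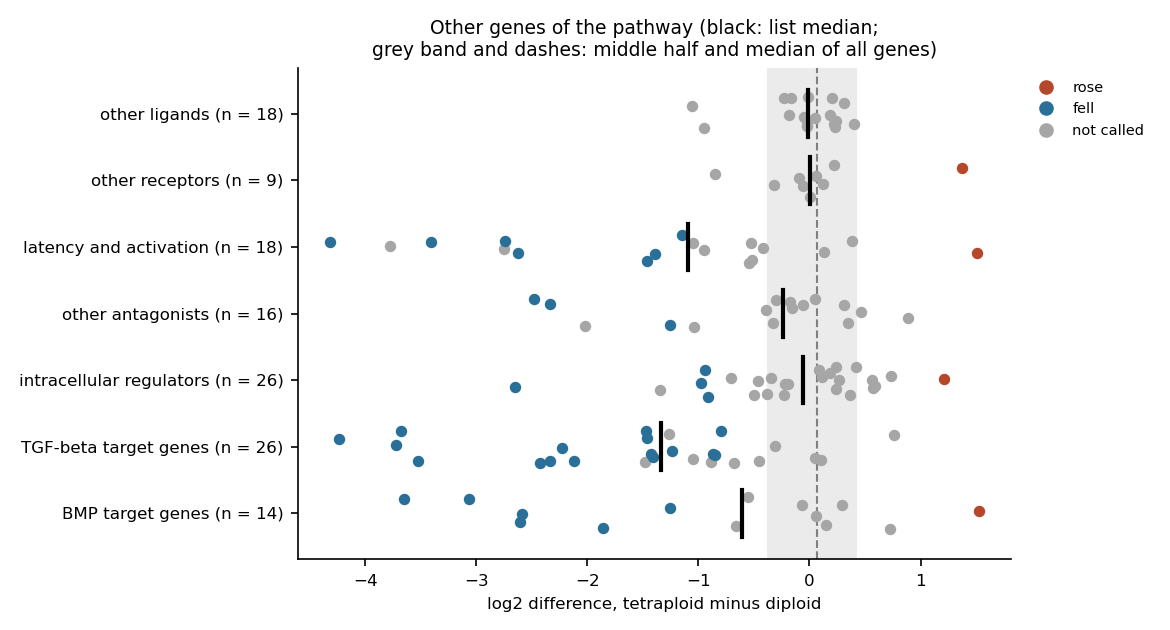
Log2 difference, tetraploid minus diploid, of the 127 other measured genes of the pathway, 1 row per list and 1 point per gene, with the list median in black and the interquartile range and median of all genes in grey. TGF-beta target genes (median -1.34) and latency and activation genes (median -1.10) lie furthest to the left.

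Markers of other cell types were set beside the members. The 18 members that fell averaged 7.56, 7.57 and 7.53 on the tetraploid arrays, against 9.83, 9.81 and 9.83 on the diploid arrays. They were picked as lower on these same arrays, so the gap between the lines was set by that choice. Being called favours genes with little spread within a line, and single members differed: diploid array 1 was the highest of its line for 9 of the 18 and the lowest for 5. The part of the macrophage and leukocyte markers in the result was not tested. Of the 15 macrophage and leukocyte markers 3 fell, Lyz2, C1qa and Mrc1, and 7 lay below background on all arrays, Mrc1 among them. Those 3 calls ended with values raised to background (adjusted p 0.0762, 0.957 and 0.463), and each ended without diploid array 2 or 3. Endothelial markers averaged 6.05, 6.05 and 6.12 in the tetraploid line, against 6.92, 6.96 and 6.82 in the diploid line. Of those 8 markers 2 fell, Kdr and Emcn, and 5 lay below background throughout. Among the rest, 1 of 8 epithelial markers fell (Krt18, 12.5%, against 7.8% of all genes). Of 6 cartilage and bone markers 1 rose (Sox9, 16.7%, against 6.15% of all genes). Col2a1 of the same list was lower on each tetraploid array than on any diploid array, but not called (difference -1.10, limma adjusted p = 0.0872). With values raised the calls of Emcn (adjusted p = 0.337) and Krt18 (0.463) ended. Krt18 also lost its call without tetraploid array 2 (0.0545), and Sox9 without diploid array 1 or 2 (0.0554 to 0.0562).

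**Figure D4:**
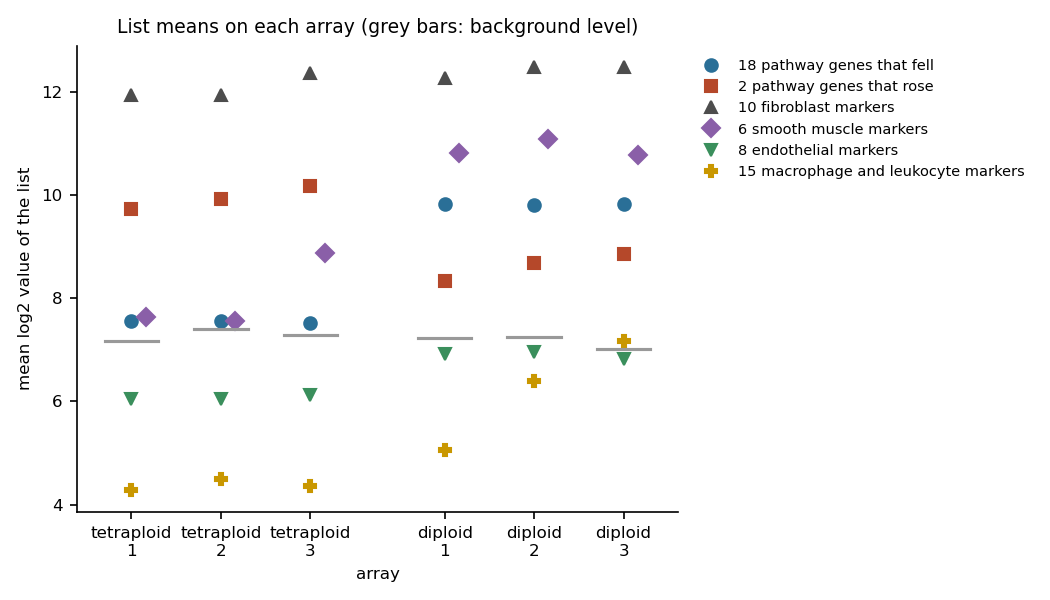
Mean log2 value of the pathway genes that fell or rose and of 4 marker lists on each array (vertical axis), tetraploid arrays left and diploid arrays right, with the background level of each array as a grey bar. The pathway genes that fell lie from 7.53 to 7.57 in the tetraploid line and from 9.81 to 9.83 in the diploid line, and the macrophage and leukocyte markers range from 5.07 to 7.17 on the diploid arrays. The genes that fell were picked on these same arrays, so their gap between the lines was set by that choice.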

How the data were processed

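Total RNA of 3 samples of each line was depleted of ribosomal RNA and hybridised to Affymetrix whole-transcript arrays, per the labels' protocols. Per the submitters' processing notes, the deposited log2 values came from Affymetrix Expression Console; its version, algorithm and normalization are not given in the sources used here. Array medians differed by at most 0.0435, so values were used as deposited. Of 28944 probe sets 21698 named a single gene found in the RefSeq table (GRCm38.p6), and the one with the highest mean was kept for each of 19856 genes. Arrays give no counts, and their number limits the precision.

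The test was limma (version 3.58.1, R 4.3.3), with lmFit, eBayes and two-sided p-values adjusted by Benjamini-Hochberg over all genes; its script was tested on simulated data. Errors beside differences are limma's SE and intervals are its 95% intervals, unadjusted. An exact permutation test of 3 against 3 cannot go below 0.1. Where a line was at or below background on all its arrays, the fold is a lower bound, and no fold is given where the bound is under 1 or both lines are below background. The members and lists were chosen with earlier results of these data known. Every called member is named with its values; of the other pathway genes above background on all arrays of at least 1 line, the 8 largest called falls and up to 8 called rises, of which there were 4, are named. Alternatives were array centring, quantile normalization, a filter on dim genes, background floors, the mean over probe sets, limma-trend, leaving out each array and a replicate block. Replicate numbers recur in both lines, but no label says that a number marks a shared batch, so no block was used in the main fit. Deviations of same-numbered arrays correlated at 0.101, 0.0307 and -0.0461, which cannot exclude a shared batch. Of the other pathway genes listed, those not measured were not analysed here.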

Additional observations from a re-analysis of the deposited data

How the results depend on the processing

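Among the 47 pathway genes, no call was lost under array centring, quantile normalization, limma-trend or the mean over probe sets, nor among the 38 genes left by the filter on dim genes, which removed the called Bmp5, Bmp6 and Gdf6; falls numbered 18 to 24 and rises 2 or 3. Calls for higher and lower genes overall were 1221 and 1549. With the replicate block 12 members fell and 1 rose, and 607 genes were higher. The calls of Tgfb2, Bmp6, Tgfbr1, Acvr1, Smad1, Id2 and Id3 ended in that fit. No label says whether the numbers pair the samples, so which of the 2 fits is apt cannot be settled here. Limma-trend called 1838 genes higher. With values raised to background, 1960 genes were higher and 8 other pathway genes rose (7 with the filter on dim genes); with the floor at the 99th percentile 4 members rose and the members' median was -0.26. The median of all genes was 0.12 with values raised and 0.11 with quantile normalization. Among the 20 called members 3 changed sign under the lower and the higher floor: Bmp5 (0.11 and 0.054), Bmp6 (0.12 and 0.054) and Gdf6 (0.12 and 0.054). So did 3 uncalled members under the lower floor (Nog, Chrd and Smad9) and 5 under the higher, and 2 and 8 of the 40 called other pathway genes, Pcsk5 (0.054) among the 8; almost only the background levels were left. Leaving out 1 array gave 261 to 1043 genes higher and 576 to 1557 lower, 7 to 19 members lower and 0 to 2 higher, and 18 to 35 other pathway genes lower and 0 to 4 higher. With only diploid array 1 kept in the diploid line, an alternative chosen after seeing the data because macrophage markers were higher on diploid arrays 2 and 3, the lone sample is assumed to vary like the tetraploid ones. It called 46 genes higher and 86 lower, 1 member lower (Inhba) and 0 higher, and 1 other pathway gene lower and 0 higher, with fewer samples; the members' median was -0.81.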
